A study of Oryza sativa with 18 samples.

Results

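The salt response of wild-type rice leaves was described from 6 of the 18 libraries in the series, chosen by their labels alone. The salt-treated group was 3 libraries of the wild-type cultivar Ningjing 4 exposed to 150 mM NaCl for 4 h. It was set against 3 libraries of the same cultivar kept in normal nutrient solution. All 6 were leaf RNA without a transgene or deletion named in the labels, and the labels give neither the age of the plants nor a harvest time for the controls. A difference in harvest time therefore cannot be told apart from salt. The other 12 libraries of the series come from rice lines that lack FKBP57 or FKBP73, immunophilins that its title links to salt tolerance, under both conditions. Per the design text the 3 libraries of a group are biological replicates. RNA was selected by its poly-A tail, and plants behind a library may have been 1 or several, which the labels do not say.

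Salt reaches a leaf first as a loss of water and later as an excess of sodium. The water deficit raises the hormone abscisic acid (ABA). Receptors that bind it block clade A PP2C phosphatases, which frees the SAPK kinases to activate bZIP transcription factors of the ABF type. Their targets include the LEA proteins and dehydrins, small hydrophilic proteins that accumulate in drying tissue. Sodium itself is exported by the SOS pathway, kept out of the leaf by HKT transporters and stored in vacuoles by NHX antiporters.

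Reads were counted per gene, and 25957 of 37863 genes had enough counts to be tested. Total counts were 35440909 to 37320965 in the salt libraries and 28904403 to 39894394 in the control libraries. Levels are given as CPM, counts brought to a common library total by TMM scaling and not divided by gene length, so levels are compared between libraries and not between genes. The count table does not pair its identifiers with gene names, and neither does the reference table. Genes are therefore described as members of 28 lists written by identifier from general knowledge of rice genes, with 237 identifiers of which 224 were tested. Their membership could not be checked against a table, and the lists were chosen with earlier results of these data known. The leaf label was checked against photosynthesis genes, which were abundant in all 6 libraries. The Rubisco, activase and Calvin cycle list summed to 18722, 27586 and 12495 CPM in the salt libraries and to 24131, 47753 and 50316 CPM in the controls.

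The control libraries were not alike. The 3 salt libraries correlated with each other at 0.972 to 0.979 in log2-CPM over genes. Controls 1 and 2 correlated at 0.97. Control 3 correlated at 0.914 and 0.907 with the other controls and at 0.93, 0.935 and 0.916 with the salt libraries. Control 3 was therefore closer to each salt library than to either of the other controls.

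Genes of cell division and DNA replication marked this split. The list, chosen after the data were seen, holds cyclins, mitotic kinases, the replication clamp and subunits of the replicative helicase. It summed to 36.4, 35 and 37.7 CPM in the salt libraries, against 515, 428 and 52.6 CPM in controls 1, 2 and 3. Only controls 1 and 2 were high, and control 3 lay near the salt libraries. A member with a large change had 0.222, 0.115 and 0.24 CPM in the salt libraries and 65.8, 49.5 and 2.96 CPM in controls 1, 2 and 3. Of the 11 members 10 fell in the test of all 6 libraries, with a median log2 fold change of -4.42. That count was 4 without control 1, control 2, salt 1, salt 2 or salt 3, and 10 without control 3.

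The sums of other marker lists were also higher in controls 1 and 2 than in control 3. The 4 KNOX factors of the shoot meristem, also chosen after the data were seen, summed to 0.556, 0.173 and 0.639 CPM under salt and 2.75, 11.4 and 0.825 CPM in controls 1, 2 and 3. None of the 4 passed the test. The root marker list had 7 members, of which 5 were tested and 2 fell. Its sum was 12.1 to 15.9 CPM under salt, against 125, 101 and 25.5 CPM in controls 1, 2 and 3, with 1 member at 0 in all 3 salt libraries. Most of the sums of controls 1 and 2 came from 1 member, with 100, 75.8 and 9.83 CPM in controls 1, 2 and 3. Not all members followed the split, as another had 8.24, 9.89 and 11.6 CPM in the same order. Without salt 3 only 1 root marker fell. Of 5 genes often used as PCR references, none fell, 1 rose and the sum was 578, 542 and 491 CPM under salt against 1513, 1185 and 567 CPM in the controls. A single member gave 780, 580 and 132 CPM of the sums in controls 1, 2 and 3. Without control 3 the count of reference genes that fell was 3, and the call of the member that rose ended without each of the other 5 libraries in turn. In leaf RNA taken in bulk, fewer cells of a type and less RNA per cell cannot be told apart. The part of dividing tissue in the results below was not tested.

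To place each library without using it, genes were called in a fit that left that library out. Its log2-CPM was then set on a scale from 0, the mean of the remaining controls, to 1, the mean of the remaining salt libraries. Over the genes called higher under salt without control 3, control 3 had a median position of 0.41, and 1486 of 3926 genes, 37.9%, were nearer to the salt mean. Over the genes called lower its median was 0.6, and 2049 of 3571, 57.4%, were nearer to the salt mean. Controls 1 and 2 had medians of 0.02 and -0.17 for the higher genes and 0.15 and -0.01 for the lower genes. The left-out salt libraries had medians of 0.94, 0.79 and 1.17 for the higher genes and 0.72, 0.91 and 1.02 for the lower genes. Salt 2 was thus the least changed of the salt libraries among the higher genes, and salt 1 among the lower genes.

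**Figure D1:**
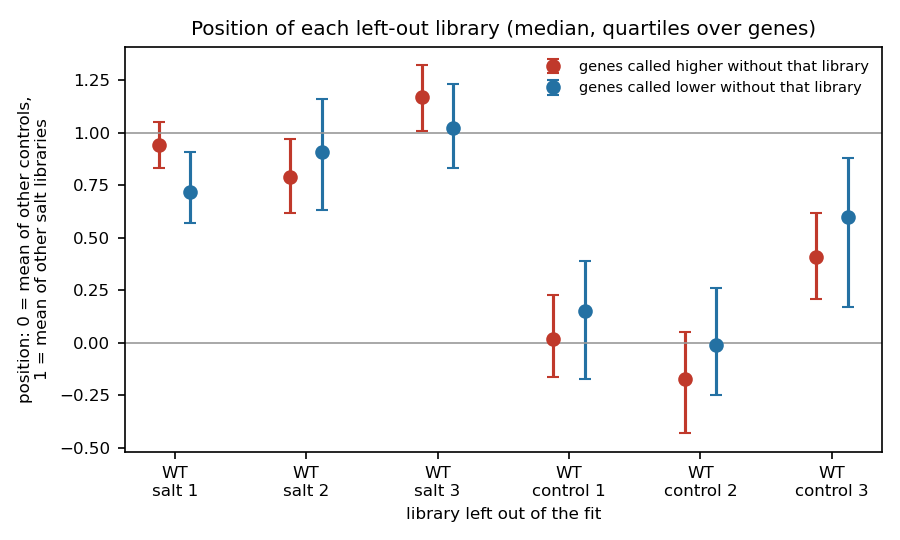
Median position (points) and quartiles (bars) of each left-out wild-type library over the genes called higher (red) or lower (blue) without it, on a scale from 0 (mean of the other controls) to 1 (mean of the other salt libraries). Control 3 lies between both groups, at 0.41 and 0.6, while the other 5 libraries lie near their own group.

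edgeR's quasi-likelihood test called 6364 genes, 24.5% of those tested, at an adjusted p under 0.05. Of these 3539 (13.6%) rose and 2825 (10.9%) fell. The libraries of both groups did not overlap in CPM for 5936 of the called genes, where 38.5% of all genes tested had no overlap. The count depended on single libraries, with 4237 calls when control 1 was left out, 3604 when control 2 was and 3093 when salt 3 was. Without control 3 it was 3940 higher (14.9%) and 3585 lower (13.6%). Against control 3 alone it was 588 higher (2.18%) and 511 lower (1.90%). In that fit a lone control is assumed to vary like the other groups, so fewer calls do not show a smaller response.

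By size, the median change was larger among the genes that fell than among those that rose. That order held from 1 to 100 CPM and was not seen in the other level classes given below. The median log2 fold change was 1.24 among the genes that rose and -1.77 among those that fell, with the top decile at 3.44 and the bottom decile at -4.55. Changes under 2-fold made up 1328 of the rises and 518 of the falls. At the other end, a log2 change of 4 or more was called for 247 genes that rose and 380 that fell. Among all the genes that rose, 45 had no count in any control library, of 76 such genes tested. Among those that fell, 55 had none in any salt library, of 119 such genes tested. Genes without a count in a group could pass the filter only through counts in other groups. The shares called are therefore set in part by the filter and are no support for a response. The fitted sizes of these genes depend on the prior count.

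By expression level, rises were the more frequent among abundant genes and falls among scarce ones. Of the 4442 genes under 1 CPM, in the mean of the 6 libraries, 282 (6.35%) rose and 359 (8.08%) fell. Of the 8576 genes from 1 to 10 CPM, 901 (10.5%) rose and 1208 (14.1%) fell. From 10 to 100 CPM the order was the other way, with 1850 (17.3%) higher and 1105 (10.4%) lower. From 100 to 1000 CPM 498 (22.5%) rose and 151 (6.84%) fell. Of the 54 genes at 1000 CPM and over, 8 (14.8%) rose and 2 (3.7%) fell. The median log2 fold change of the genes that rose was 3.21 under 1 CPM, 1.7 from 1 to 10, 0.97 from 10 to 100, 1.08 from 100 to 1000 and 1.72 at 1000 CPM and over. That of the genes that fell was -3.04, -2, -1.32, -1.08 and -1.51 in the same order. The sizes were thus largest in the lowest class and did not decline steadily, as the few calls in the top class lay above those of the class below it. The median standard error over all genes of a class was 0.76, 0.41, 0.24, 0.24 and 0.47. No called gene under 1 CPM changed by less than 2-fold, against 11% of calls from 1 to 10 CPM and 44.6% from 10 to 100 CPM. CPM rises with transcript length, so these classes mix length and level. The split of higher and lower calls below and above 10 CPM had the same order with RLE scaling and with library size alone.

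**Figure D2:**
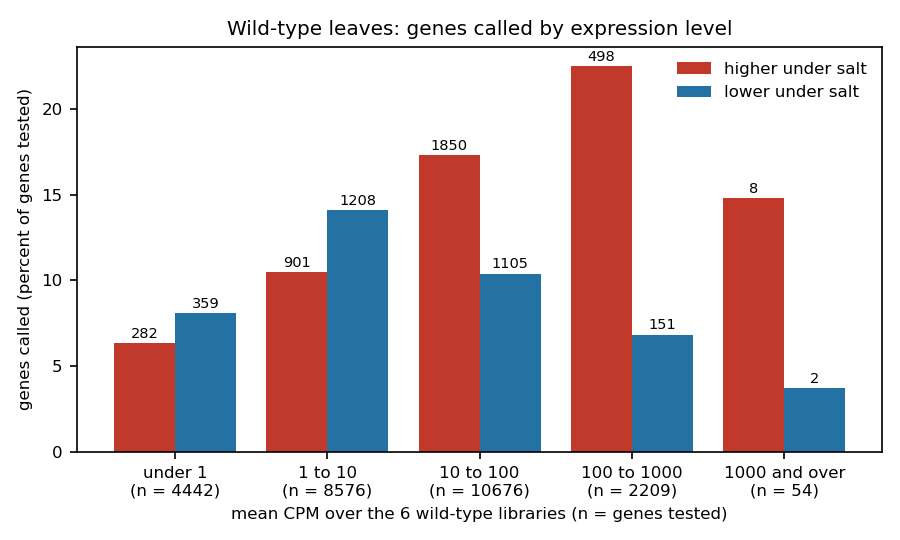
Percent of tested genes called higher (red) or lower (blue) under salt in wild-type leaves, by mean CPM over the 6 libraries, with the number of genes above each bar. Falls exceed rises below 10 CPM and rises exceed falls above it, with 22.5% against 6.84% from 100 to 1000 CPM.

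The genes that rose held 26.4%, 23.6% and 30.5% of all counts in the salt libraries and 11.9%, 10.1% and 12.4% in the controls. The genes that fell held 4.81%, 4.12% and 3.84% under salt and 12.1%, 12.1% and 8.80% in controls 1, 2 and 3. Both splits use the libraries that chose the genes, so the exact permutation p of 0.1, the smallest that 3 against 3 allows, adds no support. The 100 most abundant genes of each library held 14% ± 1.22 under salt and 16.5% ± 2.99 in the controls (SD, n = 3 each; exact two-sided permutation p = 0.4). Of the 100 genes with the highest mean, 15 rose and 3 fell.

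The 4 identifiers printed here are those with the largest difference in mean CPM in each direction, among called genes without overlap. Os01g0348900 had 1869, 1408 and 2997 CPM in the salt libraries, against 123, 29.7 and 88.3 CPM in the controls. Every salt library was more than 10 times as high as every control. Its log2 fold change was 4.7 (SE 0.79, edgeR adjusted p = 0.00088). It was 4.58 against control 3 alone (adjusted p = 0.057), the only one of 15 alternatives that ended the call.

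Os02g0161900 had 4306, 3864 and 4233 CPM under salt and 1802, 2164 and 2521 CPM in the controls. The groups lay apart, with a smaller fold on a high level. Its log2 fold change was 0.94 (SE 0.25, edgeR adjusted p = 0.014), and the call ended without control 1 (adjusted p = 0.056), in a fit of the 6 wild-type libraries alone (0.057) and against control 3 alone (0.28), in a range of 0.0001 to 0.28 over 15 alternatives.

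Os02g0626100 had 2218, 1553 and 1827 CPM under salt and 2682, 5333 and 4867 CPM in the controls, with control 1 nearest to the salt libraries. Its log2 fold change was -1.2 (SE 0.37, edgeR adjusted p = 0.031). Os04g0459500, a member of the Rubisco, activase and Calvin cycle list, had 568, 889 and 352 CPM under salt and 964, 3032 and 2359 CPM in the controls, again with control 1 lowest. Its log2 fold change was -1.81 (SE 0.63, edgeR adjusted p = 0.048). Both calls of lower genes were lost when any single library other than control 1 was left out, with adjusted p up to 0.11 for Os02g0626100 and up to 0.17 for Os04g0459500.

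**Figure D3:**
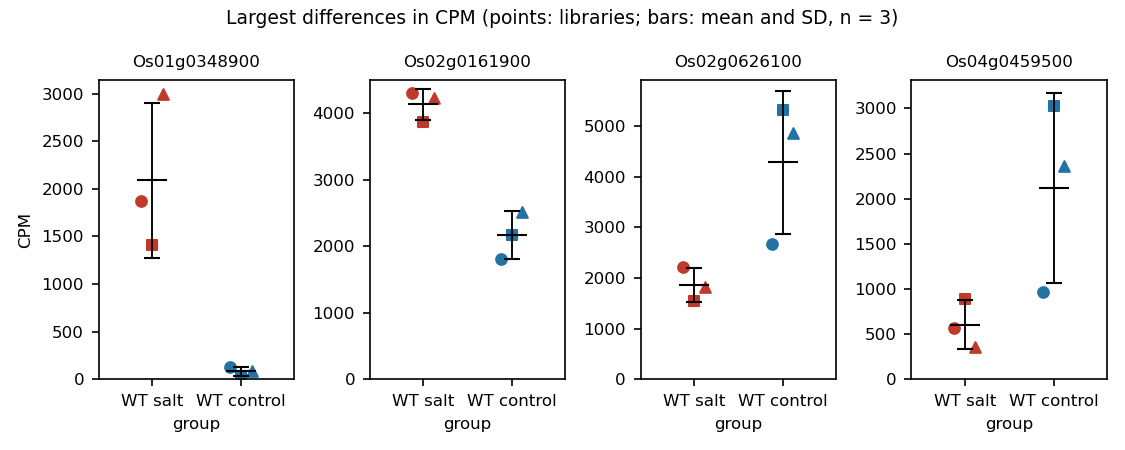
CPM of the 4 genes with the largest differences in mean CPM, by library (circle, square and triangle for replicates 1, 2 and 3), with mean and SD of 3 libraries. Salt and control libraries do not overlap in any panel, and in both genes that fell control 1 is the control nearest to the salt libraries.

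Of the 224 tested members of the 28 lists, 76 rose and 20 fell, where 13.6% and 10.9% of all genes tested did so. As the lists were chosen with earlier results of these data known, this contrast is not independent of them. Of these 96 calls 65 held without each of the 6 wild-type libraries in turn. The median log2 fold change of all genes tested was -0.058.

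All 9 LEA proteins and dehydrins rose, by 2.87 or more on the log2 scale, with a median of 4.8. The count of rises ran from 6 to 9 with single wild-type libraries left out. The summed level was 2944, 1155 and 4338 CPM under salt and 117, 144 and 271 CPM in controls 1, 2 and 3. Salt 2 was the lowest salt library and control 3 the highest control. The groups stayed apart for all 9 members, where 38.5% of all genes tested had no overlap. A member in which control 3 was the highest control had 836, 314 and 1163 CPM under salt and 5.97, 12.3 and 65.1 CPM in the controls. Its log2 fold change was 4.8 (SE 1.31, edgeR adjusted p = 0.017), and its adjusted p ran from 0.0099 to 0.073 with single libraries left out, the highest without control 2. The member with the smallest p had 30.5, 10.3 and 59.8 CPM under salt and 0.295, 0.5 and 0.263 CPM in the controls, a log2 change of 6.55 (SE 0.65, edgeR adjusted p = 2e-05). Against control 3 alone the median was 3.58 and 2 of 9 were called.

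ABA synthesis changed in both directions. The list holds dioxygenases that cleave the carotenoid precursor, the epoxidase upstream of them and a dehydrogenase downstream. Of 7 members 4 rose and 2 fell. A member that rose had 10.2, 2.8 and 7.88 CPM under salt and 0.0227, 0 and 0.225 CPM in the controls (log2 fold change 6.55, SE 0.95, edgeR adjusted p = 0.00031). Another member that rose had 69.9, 54.2 and 83.7 CPM under salt and 18.3, 23.1 and 22.1 CPM in the controls, an even shift by 1.71 (SE 0.25, edgeR adjusted p = 0.00036). A member that fell had 0.167, 0.0577 and 0.16 CPM under salt and 9.98, 7.55 and 11.9 CPM in the controls (log2 fold change -6.21, SE 0.89, edgeR adjusted p = 0.00029). These 3 calls held without each single library and against control 3 alone, at adjusted p = 0.034, 0.034 and 0.0074. The other member that fell had 2.61, 2.51 and 2.61 CPM under salt and 6.26, 5.3 and 14 CPM in the controls, and its call was lost without control 3, salt 1, salt 2 or salt 3. Of the 3 ABA 8'-hydroxylases, which break the hormone down, 1 rose, with 11.1, 10.5 and 17.2 CPM under salt and 5.63, 4.42 and 4.28 CPM in the controls. That call ended without control 2, control 3 or salt 3.

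Among the signalling genes, 7 of 8 clade A PP2C phosphatases rose, with a median of 3.31. They summed to 518, 314 and 589 CPM under salt and 106, 129 and 135 CPM in the controls. All 7 calls held without each single library, and 4 were made against control 3 alone, where the median was 2.79. A member with even replicates had 63.6, 35.7 and 55.0 CPM under salt and 5.22, 4.44 and 7.61 CPM in the controls (log2 fold change 3.16, SE 0.23, edgeR adjusted p = 8.7e-06). The member that did not pass had 43.1, 39.3 and 43.5 CPM under salt and 36.5, 56.0 and 47.7 CPM in the controls, so both groups overlapped.

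Of the 10 SAPK kinases, which the phosphatases hold inactive, 6 rose with a median of only 0.58 over the list. The summed level was 875, 811 and 973 CPM under salt and 488, 483 and 612 CPM in the controls. The largest change was from a member with 119, 87.4 and 154 CPM under salt and 22.9, 18.6 and 31.1 CPM in the controls (log2 fold change 2.31, SE 0.25, edgeR adjusted p = 4e-05). The count was 3 when any single library other than control 3 was left out. Of the 6 bZIP factors of the ABF type, 4 rose with a list median of 1.06. The member with the highest CPM had 120, 59.0 and 152 CPM under salt and 15.8, 13.7 and 24.8 CPM in the controls (log2 fold change 2.61, SE 0.29, edgeR adjusted p = 4.2e-05).

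Stress transcription factors of the NAC family were also higher. Of the 7 stress NAC factors 6 rose, with a median of 1.84, and all 6 calls held without each single library. Their sum was 1032, 913 and 1408 CPM under salt and 171, 160 and 345 CPM in the controls. The steepest had 146, 172 and 190 CPM under salt and 3.81, 6 and 7.61 CPM in the controls (log2 fold change 4.87, SE 0.43, edgeR adjusted p = 1.2e-05). Against control 3 alone 2 NAC factors were called and the median was 1.4. The DREB factors, which bind drought and cold response elements, were mixed, with 2 of 6 tested members higher and 1 lower. One that rose had 52.0, 42.9 and 68.8 CPM under salt and 13.0, 9.86 and 15.9 CPM in the controls (log2 fold change 2.08, SE 0.21, edgeR adjusted p = 2.5e-05). The one that fell was near absence, with no count under salt and 0.0454 to 0.194 CPM in the controls, and its call ended without control 2 or any salt library.

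The SOS pathway list holds the sodium exporter of the plasma membrane, its kinase and its calcium sensor. Of these 3 only 1 rose. It had 92.0, 84.9 and 92.4 CPM under salt and 36.6, 33.7 and 46.3 CPM in the controls (log2 fold change 1.21, SE 0.15, edgeR adjusted p = 0.00013, and 0.024 against control 3 alone). The member with the highest CPM had 212, 238 and 231 CPM under salt and 151, 181 and 228 CPM in the controls and did not pass. Its log2 fold change of 0.28 (SE 0.21) was 0.00 against control 3 alone.

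Of 13 sodium and potassium transporters 4 rose, none fell and the median was 0.27, while 9 did not pass. The sum was 467, 347 and 577 CPM under salt and 211, 198 and 222 CPM in the controls, so all salt libraries lay above all controls. The member with the highest CPM had 193, 126 and 270 CPM under salt and 65.8, 57.7 and 36.7 CPM in the controls (log2 fold change 1.88, SE 0.36, edgeR adjusted p = 0.0021, and 0.036 against control 3 alone). The largest change among the 4 was from 1 member with 41.4, 25.2 and 63.3 CPM under salt and 6.06, 6.72 and 7.80 CPM in the controls, a log2 change of 2.66 (SE 0.44, edgeR adjusted p = 0.0008).

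Of 10 genes for osmolytes, the compatible solutes proline, trehalose, glycine betaine and galactinol, 4 rose and 1 fell. The steepest had 139, 48.1 and 151 CPM under salt and 5.54, 8.05 and 11.4 CPM in the controls (log2 fold change 3.76, SE 0.43, edgeR adjusted p = 5.1e-05). The member with the highest CPM had 279, 317 and 345 CPM under salt and 197, 170 and 157 CPM in the controls (log2 fold change 0.85, SE 0.18, edgeR adjusted p = 0.0039). The member that fell had 10.4, 5.89 and 10.4 CPM under salt and 16.1, 13.1 and 20.4 CPM in the controls, and its call was lost without control 1, control 3, salt 2 or salt 3.

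JAZ repressors, which jasmonate removes to free its transcription factors and which are themselves induced by that hormone, rose in 7 of 9 tested cases. Their median was 2.9. The sum was 773, 657 and 838 CPM under salt and 231, 206 and 323 CPM in the controls. Against control 3 alone the median was 2.22 and 4 were called. One member had 99.7, 81.4 and 133 CPM under salt and 9.03, 5.86 and 15.3 CPM in the controls (log2 fold change 3.38, SE 0.38, edgeR adjusted p = 4.9e-05).

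Heat shock genes rose in part. Of the small heat shock proteins, chaperones that hold unfolding proteins, 3 of 7 tested members rose, and 5 rose without control 3. The sum was 139, 113 and 220 CPM under salt and 33.1, 19.1 and 32.1 CPM in the controls. Of 5 heat shock factors 3 rose, and 1 rose without salt 3. Their sum was 102, 107 and 113 CPM under salt and 63.8, 82.2 and 104 CPM in controls 1, 2 and 3, and 1 was called against control 3 alone. Of 8 larger chaperones of the HSP101, HSP90 and HSP70 classes 2 rose, and their sum followed the control split, with 2025, 1532 and 1924 CPM under salt and 3412, 3237 and 1503 CPM in controls 1, 2 and 3. One member carried that split, with 1655, 1255 and 1453 CPM under salt and 3148, 2914 and 1321 CPM in controls 1, 2 and 3, and it did not pass. The chaperone count was 1 without control 1, control 2 or any salt library and 4 without control 3.

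Photosynthesis genes lay lower under salt in most members but rarely beyond the spread of the libraries. Of 14 genes for Rubisco, its activase and the Calvin cycle, the carbon-fixing part of photosynthesis, all 14 had a negative log2 fold change, with a median of -0.78, and 1 passed the test. That call was the one of Os04g0459500 described above. The member with the highest CPM had 7507, 9287 and 4392 CPM under salt and 10711, 24836 and 22725 CPM in the controls, at a log2 change of -1.46 (SE 0.6, edgeR adjusted p = 0.086). The groups did not overlap, yet control 1 was close to salt 2.

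None of the 12 light harvesting genes passed, and their log2 fold changes ran from -1.72 to -0.04 with a median of -1.08. Their sum was 1569, 3632 and 1394 CPM under salt and 3236, 5401 and 5215 CPM in the controls, so salt 2 lay above control 1. Of 10 genes of the photosystems and electron transport none passed, with a median of -0.38. A p that misses the threshold does not show that these levels were alike. Against control 3 alone the medians were -1.23, -1.02 and -0.81 for the 3 lists in this order, with no call.

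Chlorophyll breakdown genes, which act in yellowing leaves, rose in 5 of 7 cases with a median of 1.32. The sum was 2081, 1961 and 2475 CPM under salt and 952, 1168 and 1636 CPM in controls 1, 2 and 3, with control 3 the highest control. A member had 256, 187 and 332 CPM under salt and 68.2, 59.5 and 105 CPM in the controls (log2 fold change 1.73, SE 0.3, edgeR adjusted p = 0.0012). The count was 3 without control 1, control 2 or salt 3. Against control 3 alone the median was 0.9 and none was called.

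Nitrogen assimilation genes changed in both directions. Of 10 genes 2 rose and 2 fell, near the 13.6% and 10.9% of all genes tested that did so. A gene that rose had 888, 836 and 871 CPM under salt and 327, 311 and 444 CPM in the controls (log2 fold change 1.26, SE 0.16, edgeR adjusted p = 0.00014, and 0.026 against control 3 alone). A gene that fell had 41.5, 24.4 and 34.5 CPM under salt and 74.6, 176 and 199 CPM in the controls (log2 fold change -2.16, SE 0.6, edgeR adjusted p = 0.019). The count of falls was 0 without control 2 or salt 3 and 1 without control 3, salt 1 or salt 2.

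Cellulose synthases, the enzymes that spin cell wall glucan, fell in both classes. Of the 6 of primary walls 4 fell, with a median of -1.14, and their sum was 1978, 1441 and 1297 CPM under salt and 3052, 3083 and 3393 CPM in the controls. The steepest fall had 179, 111 and 114 CPM under salt and 353, 416 and 423 CPM in the controls (log2 fold change -1.56, SE 0.27, edgeR adjusted p = 0.0012, and 0.029 against control 3 alone). In that member control 3 was the highest control. In the other 3 that fell control 3 was the lowest control, as in the member with 100, 72 and 78.7 CPM under salt and 295, 237 and 144 CPM in controls 1, 2 and 3. Of the 4 falls 1 was called against control 3 alone. The count was 2 without control 1, control 2, salt 2 or salt 3. The 3 of secondary walls all fell, and their sum was 180, 87.0 and 112 CPM under salt and 249, 273 and 451 CPM in the controls, with a median of -1.36 and of -1.76 against control 3 alone.

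Type-A response regulators, which cytokinin induces, fell in 3 of 8 tested cases with a median of -1.26. A member had 5.34, 3.81 and 5.56 CPM under salt and 18.6, 37.8 and 52.4 CPM in the controls (log2 fold change -2.88, SE 0.63, edgeR adjusted p = 0.0051, and 0.026 against control 3 alone). Control 3 was the highest control for that gene. The 3 calls held without each single library and against control 3 alone.

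Antioxidant enzymes rose in 2 of 15 cases, near the 13.6% of all genes tested that rose. One of them had 275, 301 and 340 CPM under salt and 130, 84.1 and 176 CPM in the controls (log2 fold change 1.23, SE 0.21, edgeR adjusted p = 0.0011). Without salt 2, 1 member of this list fell. Of the plasma membrane aquaporins 7 of 11 were tested, and 1 rose and 1 fell. These counts are also near the 13.6% and 10.9% of all genes tested. The member that rose had 47.3, 30.3 and 51.8 CPM under salt and 9.1, 7.75 and 24 CPM in the controls. The member that fell had 7.84, 6.17 and 7.93 CPM under salt and 57.6, 22.3 and 16.3 CPM in controls 1, 2 and 3, and neither was called against control 3 alone. The rise ended without control 2, salt 1 or salt 3, and there were 2 rises without control 1, where the fall ended.

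Clock genes bear on the unknown harvest time of the controls. Of 11 clock genes 2 rose and none fell, with a median of 0.22. These counts are near the 13.6% and 10.9% of all genes tested that rose and fell. The gene with the highest CPM had 1218, 1525 and 993 CPM under salt and 1328, 2994 and 2137 CPM in the controls, a log2 fold change of -0.79 (SE 0.41) that did not pass. Control 1 lay within the range of the salt libraries. One that rose had 172, 101 and 282 CPM under salt and 70.2, 70.0 and 103 CPM in the controls (log2 fold change 1.19, SE 0.32, edgeR adjusted p = 0.016), with salt 2 just below control 3. No clock gene was called without control 1, control 2 or salt 3, and 1 was called without salt 1. The part of time of day in these differences was not tested.

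**Figure D4:**
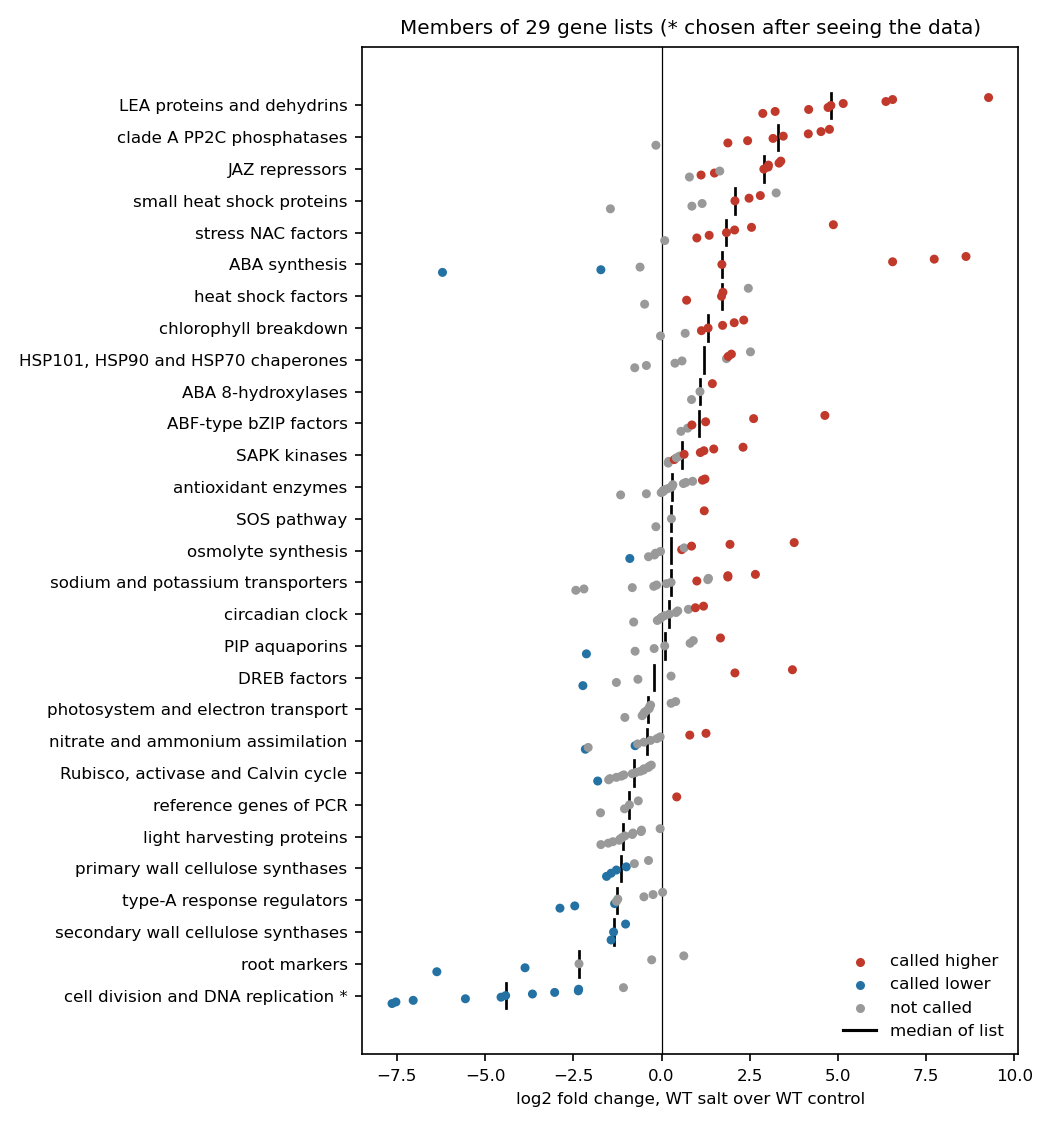
Log2 fold change of WT salt over WT control for the tested members of 29 lists, ordered by median (black line), red for members called higher, blue for members called lower and grey for the rest. The DREB member without a count under salt is drawn at its bound from 3 counts over the salt group. All 9 LEA and dehydrin genes lie at 2.87 or higher, and the cell division list, chosen after the data were seen, lies left with a median of -4.42.

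**Figure D5:**
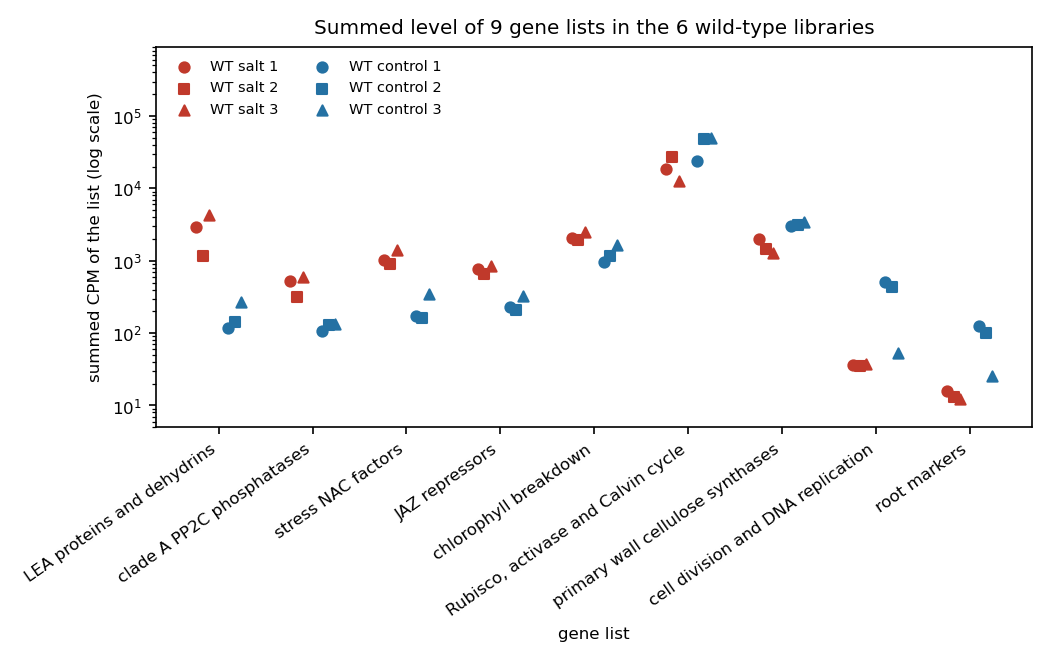
Summed CPM (log axis) of 9 gene lists in the 3 salt (red) and 3 control (blue) libraries, with circle, square and triangle for replicates 1, 2 and 3. LEA, PP2C, NAC, JAZ and chlorophyll breakdown genes are higher in all salt libraries than in any control, while cell division genes are high only in controls 1 and 2.

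The wild-type response was set against the mean response of both knockout lines by an interaction contrast over all 18 libraries, which share no control libraries between genotypes. edgeR called 0 genes (0%). By the same test 1264 of 25957 genes had an unadjusted p below 0.05, while DESeq2 made 17 calls. The former count is no more than that threshold would pass if no gene differed, but it depended on single libraries. By edgeR it was 3255 of 26374 genes without WT control 3 and 3643 of 26323 without FKBP57 knockout control 2. Without WT control 2 it was 636 of 26318. Each of these fits called 0 genes at an adjusted p under 0.05, and what moved the count was not tested. The LEA median was 4.8 in wild type, 5.56 in the FKBP57 knockout and 3.92 in the FKBP73 knockout. The PP2C median was 3.31 in wild type, 2.94 in the FKBP57 knockout and 3.7 in the FKBP73 knockout. The JAZ median was 2.9 in wild type, against 1.14 and 1.62 in the FKBP57 and FKBP73 knockouts, and the primary wall median -1.14 against -0.42 and -0.9. Among the 4 genes printed by identifier, Os01g0348900 changed by 4.7 in wild type, 3.27 in the FKBP57 knockout and 4.19 in the FKBP73 knockout (unadjusted p of the difference 0.26). Os02g0626100 changed by -1.2, -0.31 and -0.95 in the same order (unadjusted p of the difference 0.22). These values are not shown to differ, nor to be alike.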

How the data were processed

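Leaf RNA of 18 samples was sequenced, and the authors deposited whole-number counts of reads per gene. Per the submitters' processing notes, fastp 0.22.0, HTSeq 0.9.1 and the build IRGSP-1.0 were used. The sources used here do not name an aligner, a strand setting or filters, so reads of overlapping, antisense or near-identical genes may not have been told apart. The quasi-likelihood test of edgeR 4.0.16 (R 4.3.3) was applied to the counts. filterByExpr selected genes (minimum count 10, minimum total 15), leaving 25957 with 99.97% of counts, and TMM scaled the libraries. All 18 libraries entered 1 model with a mean for each of the 6 groups (12 residual degrees of freedom, biological coefficient of variation 37.7%). A gene was called, and is said to have risen or fallen, at a Benjamini-Hochberg adjusted p under 0.05 over all genes tested. Standard errors were derived from F statistics, and log2-CPM carries a prior count of 2. The fit was tested on simulated data. These held no split inside a group like that of the controls, so they do not show how the fit handles it.

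Identifiers in the reference table (assembly ASM3414082v1) matched 1 gene of the count table and none of the lists. The printed genes are the 2 higher and 2 lower with the largest difference in mean CPM among calls without overlap. The comparison, the lists and the tests were chosen with earlier results of these data known, and 2 further lists after the levels in these libraries were seen. Lists have no test of their own. Replicate pairs differed by at least 31.3 in chi-square per degree of freedom, so none is a repeated library. Alternatives were DESeq2 1.42.0, RLE, library size alone, no filter, a mean of at least 5 CPM, the 6 wild-type libraries alone, the replicate number as a block, an adjusted p under 0.01 and each library left out. Fits without other sets of libraries were chosen after seeing the data.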

Additional observations from a re-analysis of the deposited data

How the results depend on the processing

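The 6364 wild-type salt calls had the same sign, where still tested, in all fits but that against control 3 alone, where 6226 of 6364 did. Their number stayed within 1.5 times under RLE, library size alone, no filter, a mean of at least 5 CPM, the 6 wild-type libraries alone and DESeq2. It was 2589 at an adjusted p under 0.01 and 1099 against control 3 alone, and 3093 to 7525 with single wild-type libraries left out. The share of higher calls, 55.6%, was 65.9% without salt 2, 67.0% without salt 3 and 68.6% at an adjusted p under 0.01. Without WT control 3 and replicate 3 of both FKBP57 knockout groups, a choice made after seeing the data, 4848 genes were higher and 4544 lower. The fixed lists had 34 called members against control 3 alone, where 1 control limits the depth of the comparison, against 96 in all libraries. Counts of list members stayed within 1.5 times in 810 cases under the alternatives and moved further in 150. The difference from the knockouts was 17 genes by DESeq2 and 0 by edgeR throughout, and library size alone gave its median over all genes as -0.074, against 0.032 by TMM. The genes changed at least 2-fold numbered 4518 by TMM, 4544 by RLE and 4301 by library size alone. The share of counts in the most abundant genes was lower under salt by -2.44 points for 100 genes, -2.04 for 10 and -0.558 for 1000. With the replicate number as a block 5402 genes were called. The deviations of same-numbered libraries correlated at 0.28, 0.013 and 0.13. Salt 1 and salt 3 correlated best with the control of their own number, and salt 2 with control 3 at 0.16. Whether the numbers pair the samples cannot be decided from deviations of 3 libraries a group. Under the block Os04g0459500 had an adjusted p of 0.076. Why these values moved was not tested. Genes under 1 CPM had the widest errors, with a median standard error of 0.76. The part of counting error in the spread of 3 libraries was not tested.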
